A study of Mus musculus with 45 samples.

Results

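The immediate early feedback genes are a set of 10 genes that cells can switch on within minutes of a stimulus. They are grouped as genes that limit kinase signaling, cell growth or mRNA stability. They were listed by gene symbol for their known role, with earlier results of these data known: Dusp1, Dusp2, Dusp4, Dusp5, Dusp6, Btg2, Ier2, Ier3, Zfp36 and Spry2. All 10 were among the 22080 genes measured, each by 1 probe set. RNA abundance was measured on 45 Affymetrix mouse gene arrays as log2 intensity, a scale on which a difference of 1 is a 2-fold change. The arrays came from liver, kidney and brain of male C57BL/6 mice, 8 per diet group. The mice entered the study at 7 weeks of age and were killed on day 43. Food and water had been withheld for 8 h before that, and blood was drawn from the portal vein. The Control group ate the AIN-93 diet. The 4 other groups ate a high-cholesterol diet (HCD) made of AIN-93 with 0.5% cholesterol, which HCD received alone, HCD+Gl-1 with 1% of a Ganoderma lucidum mushroom extract, HCD+Gl-2 with 1% of an extract of the same mushroom grown on substrate with 10 mM acetylsalicylic acid, and HCD+Sim with 0.03% by weight of simvastatin, a cholesterol-lowering drug. Each tissue and diet had 3 arrays, which held pool A (RNA of 4 mice), pool B (RNA of the other 4 mice) and pool C (pools A and B mixed), so that a group of 3 arrays held 2 separate pools of animals.

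Growth factors, cytokines and cell stress act through mitogen-activated protein (MAP) kinase cascades, in which ERK, JNK and p38 switch on genes such as Fos and Egr1 without new protein synthesis. The same wave carries its own brakes. Dual-specificity phosphatases (the Dusp genes) remove the activating phosphates from MAP kinases, Sprouty proteins hold back the signal between growth factor receptors and ERK, and Btg2 and Zfp36 shorten the life of mRNAs. In liver and kidney these genes are known to respond to feeding, hormones, reduced blood flow and injury, and their mRNAs are made and lost quickly.

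The free-text description of every sample names brain, so the tissue given in the sample titles was checked against defining genes. The mean level of 8 hepatocyte genes was 13.2 to 13.3 on the liver arrays and at most 8.00 elsewhere, that of 8 kidney genes was 11.5 to 11.7 on the kidney arrays and at most 6.23 elsewhere, and that of 8 brain genes was 11.4 to 11.6 on the brain arrays and at most 6.69 elsewhere. Array medians lay between 6.76 and 6.92, and no pair of arrays was identical. In the liver of HCD+Gl-2 mice, pool B lay well below pools A and C for Dusp1, Dusp6, Btg2, Ier2 and Zfp36. The fold changes of these genes against HCD, and the counts of called genes of the set, are given with and without it. In the liver of HCD+Sim mice, pools A and B stood apart in markers of other tissues. The mean of 10 pancreas acinar markers was 7.23, 7.79 and 6.09 in pools A, B and C, against 5.84 to 5.95 on HCD, and that of 8 skeletal muscle markers was 7.52, 7.92 and 6.52, against 6.41 to 6.64. Of these markers 9 and 5 were called higher than on HCD, so comparisons with that group are also given with its pool C alone.

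Short stretches of promoter are shown for 4 of the genes, because they hold the DNA motifs through which immediate early genes are classically switched on. The motifs searched on both strands were the cyclic AMP response element (CRE) TGACGTCA, its core TGACG, which lies within the CRE, the AP-1 motif TGANTCA, the EGR motif GCGGGGGCG and the CArG box bound by serum response factor. RefSeq promoter entries (GRCm38.p6) were found for 8 of the 10 genes, all but Dusp4 and Ier2. Each sequence below is the 250 bases before the transcription start, written 5′ to 3′ on the strand of the gene, with motif bases in capitals. Dusp1 and Btg2 hold a CRE, Zfp36 holds an EGR motif and a CArG box, and Dusp5 holds a pair of adjacent CArG boxes and a CRE core.
Dusp1 promoter, chr17:26508473-26508722, minus strand: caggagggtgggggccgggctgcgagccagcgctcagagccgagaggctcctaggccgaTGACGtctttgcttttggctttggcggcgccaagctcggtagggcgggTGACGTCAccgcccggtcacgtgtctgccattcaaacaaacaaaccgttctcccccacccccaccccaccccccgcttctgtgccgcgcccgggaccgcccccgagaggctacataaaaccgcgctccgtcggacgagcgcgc
Btg2 promoter, chr1:134079156-134079405, minus strand: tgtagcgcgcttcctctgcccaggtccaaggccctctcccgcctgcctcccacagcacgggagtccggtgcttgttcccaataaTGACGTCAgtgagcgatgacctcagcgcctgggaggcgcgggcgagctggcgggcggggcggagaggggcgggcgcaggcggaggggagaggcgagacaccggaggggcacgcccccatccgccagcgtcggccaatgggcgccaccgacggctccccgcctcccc
Zfp36 promoter, chr7:28379229-28379478, minus strand: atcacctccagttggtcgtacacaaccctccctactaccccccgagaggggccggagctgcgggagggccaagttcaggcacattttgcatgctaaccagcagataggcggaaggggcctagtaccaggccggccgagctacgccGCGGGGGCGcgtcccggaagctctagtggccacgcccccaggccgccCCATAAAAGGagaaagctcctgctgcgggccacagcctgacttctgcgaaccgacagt
Dusp5 promoter, chr19:53528895-53529144, plus strand: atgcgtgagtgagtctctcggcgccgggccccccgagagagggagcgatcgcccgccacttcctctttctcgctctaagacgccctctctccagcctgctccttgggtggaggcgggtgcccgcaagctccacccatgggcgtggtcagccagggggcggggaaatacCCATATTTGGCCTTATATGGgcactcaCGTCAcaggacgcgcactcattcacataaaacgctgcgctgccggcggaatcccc
The CRE began 143 bases before the start of Dusp1 and 166 bases before that of Btg2, and Dusp1 had a further CRE core 191 bases before its start. The EGR motif of Zfp36 began at 105 bases and its CArG box at 58 bases before the start. The CArG boxes of Dusp5 began at 82 and 72 bases. Of all 32851 promoter windows of this length, 1.55% held a CRE, 17.8% its core, 6.75% an AP-1 motif, 2.57% an EGR motif and 1.47% a CArG box. Among the 8 genes, 2 held a CRE, 3 its core, 2 an EGR motif (Dusp2 and Zfp36) and 2 a CArG box, and none of the 8 windows held the AP-1 letters. The windows of Dusp6, Ier3 and Spry2 held none of the 5 motifs. Of the called genes not shown, Dusp6 lies at chr10:99263231-99267489, Ier2 at chr8:84661331-84662852 and Ier3 at chr17:35821713-35822911 in the same build.

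In the kidney, 6 of the 10 genes rose on HCD+Gl-2 against HCD, by 1.66-fold to 4.36-fold, and none fell. A gene was called changed in limma at an absolute log2 fold change above 0.7 and a Benjamini-Hochberg adjusted p of at most 0.05 over all 22080 genes. By the same rule 0.213% of all genes were called higher in this comparison. The median log2 fold change of the 10 genes was 1.08, against 0.01 over all genes. All 3 HCD+Gl-2 arrays lay above all 3 HCD arrays for 9 of the 10 genes, as they did for 11.4% of all genes. An exact permutation test of 3 arrays against 3 cannot give a two-sided p below 0.1, which these 9 genes reached.

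Of the MAP kinase phosphatases, Dusp1 and Dusp6 were called in the kidney. Dusp1, which acts in the nucleus on JNK, p38 and ERK, had log2 levels of 12.03, 11.69 and 12.12 in pools A, B and C of HCD+Gl-2 and 10.32, 10.28 and 10.42 in those of HCD. Its lowest HCD+Gl-2 array was thus above every kidney array of every other diet. The difference was 1.61 on the log2 scale (SE 0.20, adjusted p = 1.1e-06), or 3.05-fold. Dusp6, a cytoplasmic phosphatase that acts on ERK, was at 9.53, 9.20 and 9.53 on HCD+Gl-2 and at 8.68, 8.71 and 8.66 on HCD. It rose by 0.73 (SE 0.18, adjusted p = 0.027), close to the threshold, and without any one of 5 of the 6 arrays compared it was no longer called. Dusp4, a nuclear phosphatase, was at 7.98, 7.60 and 7.91 on HCD+Gl-2 and at 7.45, 7.49 and 7.53 on HCD, and its log2 fold change of 0.34 did not pass (adjusted p = 0.28). Dusp5, a nuclear phosphatase of ERK, was at 7.43, 7.32 and 7.58 against 7.02, 6.97 and 7.12, a log2 difference of 0.41 (adjusted p = 0.36). The groups did not overlap for either gene, and the intervals of their log2 fold changes, 0.09 to 0.59 for Dusp4 and 0.08 to 0.74 for Dusp5, lay above 0. Dusp2, a phosphatase best known in lymphocytes, differed by 0.05 with an interval of -0.13 to 0.22, and its HCD+Gl-2 arrays (6.42 to 6.51) overlapped those of HCD (6.34 to 6.49).

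The 2 genes that act on mRNA decay had the largest log2 fold changes of the set in kidney. Btg2, an antiproliferative protein that recruits the deadenylase complex CCR4-NOT, was at 9.29, 8.88 and 9.10 in pools A, B and C of HCD+Gl-2 and at 6.85, 7.04 and 7.00 in those of HCD. It rose by 2.13 on the log2 scale (SE 0.21, adjusted p = 7.4e-09), or 4.36-fold. Zfp36 encodes tristetraprolin, which binds AU-rich elements in cytokine mRNAs and speeds their loss. Its level was 10.15, 9.81 and 10.26 on HCD+Gl-2 and 8.30, 8.19 and 8.33 on HCD, a rise of 1.80 (SE 0.16, adjusted p = 5.3e-10). For both genes every HCD+Gl-2 array was higher than all 12 kidney arrays of the other diets.

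Ier2, a small nuclear protein, and Ier3, a regulator of cell survival that also acts on ERK signalling, rose as well. Ier2 was at 7.78, 7.39 and 7.82 on HCD+Gl-2 and at 6.02, 6.28 and 6.26 on HCD, a difference of 1.48 (SE 0.18, adjusted p = 6.6e-07). Ier3 was at 8.70, 8.39 and 9.08 against 7.22, 7.30 and 7.35, a difference of 1.43 (SE 0.12, adjusted p = 3.5e-11). Here too the groups were well apart, the lowest HCD+Gl-2 array lying above every other kidney array. In all 6 called genes pool B was the lowest of the 3 kidney HCD+Gl-2 arrays, and the mean level of the 10 genes was 8.65, 8.39 and 8.73 in pools A, B and C, against 7.53 to 7.59 on HCD. Spry2, the Sprouty of the set, was at 7.18, 7.19 and 7.36 against 6.91, 6.97 and 6.86, and its log2 fold change of 0.33 (interval 0.10 to 0.56) did not pass the test (adjusted p = 0.22).

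**Figure D1:**
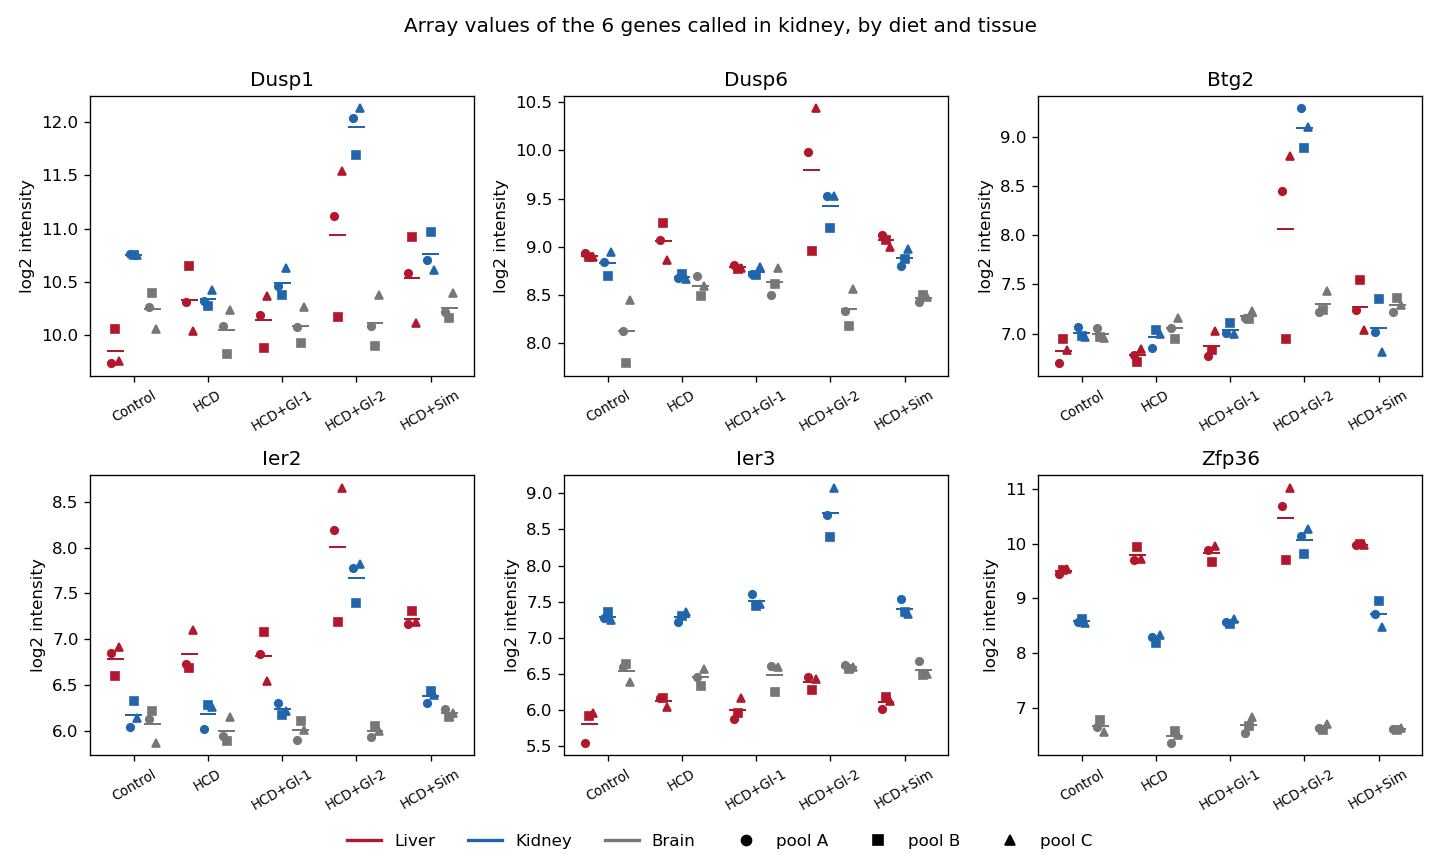
Log2 intensity (y axis) of the 6 genes called in kidney, by diet (x axis), in liver (red), kidney (blue) and brain (grey). Each point is 1 array, its shape the pool, and each line the mean of 3 arrays. The 3 kidney HCD+Gl-2 arrays of each gene lie above the other 12 kidney arrays, and pool B is the lowest of the 3 in both kidney and liver, but in liver it lies within the range of the other diets for all of them except Ier3.

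The kidney response was also present against the other HCD diets. The comparisons of HCD+Gl-2 with HCD, HCD+Gl-1 and HCD+Sim share the 3 HCD+Gl-2 arrays. Against HCD+Gl-1, 5 of the 10 genes were called higher, with 0.177% of all genes called higher. Against HCD+Sim the count was 5, with 0.186% of all genes called higher. In both it was Dusp1, Btg2, Ier2, Ier3 and Zfp36 that were called. The log2 fold change against HCD+Gl-1, the extract from substrate without acetylsalicylic acid, was 2.05 for Btg2 (SE 0.21, adjusted p = 2.8e-08), 1.49 for Zfp36 and 1.46 for Dusp1. Ier2 (1.43) and Ier3 (1.22) came next. Against HCD+Sim it was 2.03 for Btg2 and 1.19 for Dusp1. Dusp6 differed by 0.68 from HCD+Gl-1 (adjusted p = 0.10) and by 0.53 from HCD+Sim (adjusted p = 0.22), and neither difference passed.

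None of the 10 genes was called in the kidney between HCD and Control, HCD+Gl-1 and HCD or HCD+Sim and HCD, where 0.0408%, 0.131% and 0.14% of all genes were called in either direction. Zfp36 on HCD+Sim was at 8.73, 8.95 and 8.48, above the 3 HCD arrays, but its log2 fold change of 0.45 (interval 0.12 to 0.78) did not pass (adjusted p = 0.57). The Zfp36 arrays of Control (8.57, 8.63 and 8.55) and of HCD+Gl-1 (8.57, 8.53 and 8.63) also lay above those of HCD (8.30, 8.19 and 8.33). Dusp1 on HCD+Sim was at 10.71, 10.97 and 10.61, also above the HCD arrays, and its difference of 0.42 did not pass (adjusted p = 0.80). On HCD the 3 Dusp1 arrays lay below the 3 Control arrays (10.76, 10.75 and 10.75), with a log2 fold change of -0.41 and an interval of -0.83 to 0.0029.

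In the liver, 3 of the 10 genes were called higher on HCD+Gl-2 than on HCD, against 0.208% of all genes. They were Btg2 (2.44-fold), Ier2 (2.25-fold) and Dusp6 (1.66-fold), and none was called lower. The median log2 fold change of the 10 genes was 0.44, against 0.01 over all genes. All 3 HCD+Gl-2 arrays lay above all 3 HCD arrays for 3 of the 10 genes, as for 7.27% of all genes. These were Btg2, Ier2 and Ier3, of which Ier3 was not called, while the arrays of the called Dusp6 overlapped those of HCD. These liver calls rest on a spread estimated over all 45 arrays. With the spread taken from the 15 liver arrays alone, none of the 10 was called in any liver comparison.

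The liver arrays of HCD+Gl-2 did not move together. Btg2 was at 8.45 in pool A, 6.95 in pool B and 8.80 in pool C, and at 6.78, 6.71 and 6.85 in the HCD pools. Pool B was thus only slightly above HCD. The mean difference of 1.29 (SE 0.21, adjusted p = 0.00031) became 1.84 without pool B and 0.92 without pool C, both still called. With pools A and B of every group only, it was 0.95 and was not called (adjusted p = 0.077). From the liver arrays alone the adjusted p of Btg2 was 0.10. Ier2 was at 8.19, 7.19 and 8.65 on HCD+Gl-2 and at 6.74, 6.69 and 7.10 on HCD, with pool B again closest to HCD. Its log2 fold change was 1.17 (SE 0.18, adjusted p = 0.00014), 1.58 without pool B and 0.84 without pool C. From the liver arrays alone the adjusted p of Ier2 was 0.075. Dusp6 was at 9.98, 8.96 and 10.44, against 9.07, 9.25 and 8.87 on HCD, so that pool B lay within the HCD arrays. Its log2 fold change was 0.73 (SE 0.18, adjusted p = 0.021), 1.15 without pool B and 0.41 without pool C, where it did not pass (adjusted p = 0.32). Dusp6 was no longer called without any one of 4 of the 6 arrays compared (pool A or C of HCD+Gl-2 or of HCD).

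Zfp36 and Dusp1 had the same arrangement in liver but were not called. Zfp36 was at 10.68, 9.70 and 11.02 on HCD+Gl-2 and at 9.71, 9.93 and 9.72 on HCD, and its log2 fold change of 0.68 was below the threshold of 0.7 (adjusted p = 0.017). Dusp1 was at 11.11, 10.17 and 11.54 against 10.31, 10.65 and 10.04, a log2 fold change of 0.61 that did not pass (adjusted p = 0.14). In both genes pools A and C lay above every HCD array and pool B did not. Without pool B the log2 fold changes were 1.06 for Zfp36 and 0.99 for Dusp1, both called, which made 5 of 10 genes. In that fit 0.353% of all genes were called higher, against 0.208% with pool B. With pools A and B of every group only, 1 of 10 was called, Ier2, whose log2 fold change was then 0.97 (adjusted p = 0.015). The share of all genes called was not computed for that fit.

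Ier3 did not share this arrangement in liver. Its HCD+Gl-2 arrays were close together, at 6.46, 6.28 and 6.43, and all above the HCD arrays at 6.16, 6.16 and 6.04. The log2 fold change of 0.27 (interval 0.03 to 0.50) did not pass (adjusted p = 0.31). Dusp4, Dusp5, Dusp2 and Spry2 had log2 fold changes of 0.19, 0.22, 0.03 and -0.04, none of which passed, and their HCD+Gl-2 arrays overlapped those of HCD.

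**Figure D2:**
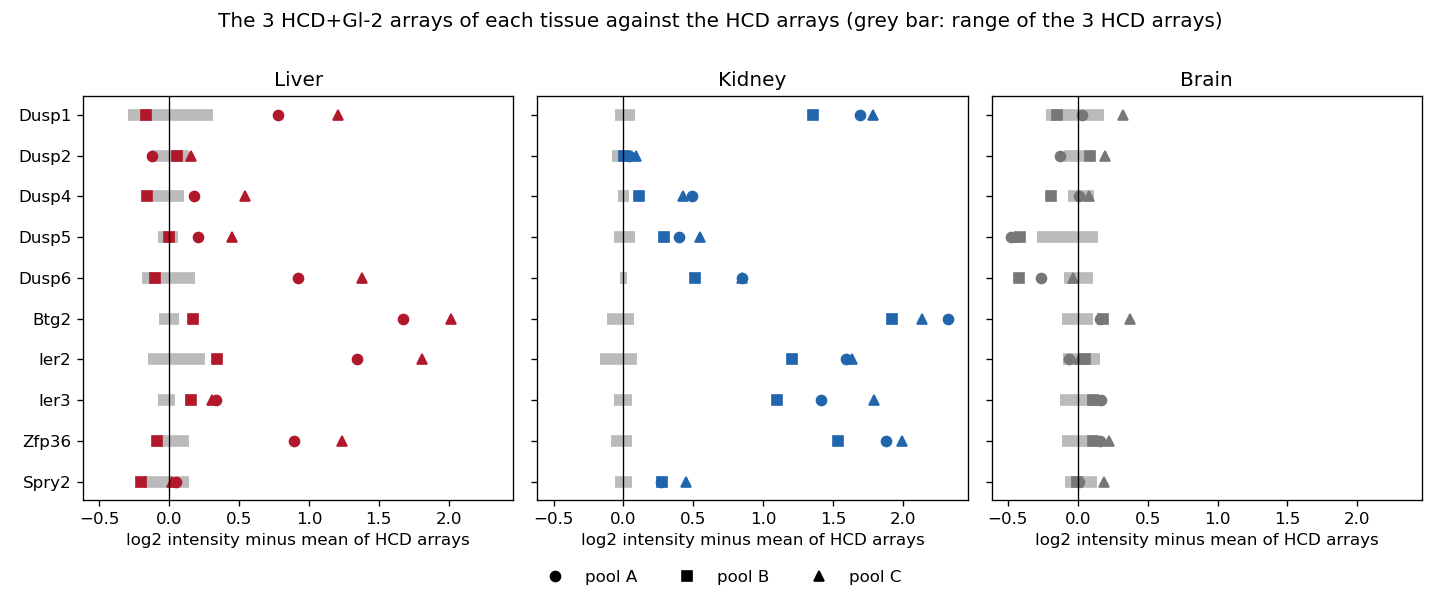
Log2 intensity of pools A, B and C of HCD+Gl-2 minus the mean of the 3 HCD arrays (x axis) for the 10 genes (y axis) in liver, kidney and brain; grey bars give the range of the HCD arrays. In liver, pool B of Dusp1, Dusp6 and Zfp36 lies within or below the HCD range while pools A and C lie above it, and in kidney all 3 pools of 9 genes lie above it.

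Pool C was made by mixing pools A and B, so its level would be set by theirs. In the liver of HCD+Gl-2 mice, pool C was above both pools A and B for 8 of the 10 genes, as it was for 38.4% of all genes. Btg2 in pool C (8.80) was 0.91 above the log2 of the mean linear level of pools A and B (7.89), and Ier2 in pool C was 0.88 above its mix. The difference for Dusp6 was also 0.88, for Dusp1 0.82 and for Zfp36 0.75. The median difference was 0.64 over the 10 genes and 0.02 over all genes, of which 95% were at or below 0.33. In the kidney of HCD+Gl-2 mice pool C was above both for 8 of the 10 genes (40.2% of all genes), with a median difference of 0.19. In every other group the median difference over the 10 genes was between -0.11 and 0.19. Single genes departed from the mix elsewhere too, by -0.92 for Dusp5 in brain Control and by -0.65 for Dusp1 in liver HCD+Sim. Pool C was above both pools for 7 of the 10 genes in brain HCD+Gl-1 and in brain HCD+Gl-2 (57.1% and 51.7% of all genes). What sets pool C of the liver above its parts was not tested.

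Against HCD+Gl-1, 4 of the 10 genes were called higher in the liver of HCD+Gl-2 mice, with 0.14% of all genes called higher. They were Dusp6 with a log2 fold change of 1.00 (SE 0.18, adjusted p = 0.0012), Btg2 with 1.19, Ier2 with 1.19 and Dusp1 with 0.80 (adjusted p = 0.023). The call of Dusp1 was lost without any one of 5 of the 6 arrays compared, among them each HCD+Gl-1 array. Against HCD+Sim, 2 were called, with 0.122% of all genes: Ier2 with 0.79 (adjusted p = 0.018) and Dusp6 with 0.72 (adjusted p = 0.030). Without pool B of HCD+Gl-2, 5 were called in each. Without pool A, 3 and 0 were called, and without pool C, 2 and 0. The shares of all genes called were not computed for these refits, so the counts cannot be set against them. In the comparison with HCD+Sim, 8 of the 10 acinar and 5 of the 8 muscle markers were called lower in HCD+Gl-2. With pool C alone for HCD+Sim, a lone array assumed to vary like the others, none of the 10 genes was called, with log2 fold changes of 0.82 for Ier2 (adjusted p = 0.097) and 0.79 for Dusp6 (adjusted p = 0.11).

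Between HCD+Gl-1 and HCD and between HCD+Sim and HCD, none of the 10 genes was called in liver, where 0.163% and 0.258% of all genes were. The HCD+Sim arrays of Btg2 (7.24, 7.54 and 7.03) lay above those of HCD, with a log2 fold change of 0.49 and an interval of 0.06 to 0.93 (adjusted p = 0.33). They had the same order of pools as the acinar and muscle markers, and with pool C alone the log2 fold change was 0.26 (interval -0.36 to 0.87). Between HCD and Control none was called either, with 0.245% of all genes called. Dusp4 came closest, at 6.94, 6.86 and 6.71 on HCD and at 6.63, 6.17 and 6.18 on Control, groups that did not overlap. Its log2 fold change of 0.51 (SE 0.12, adjusted p = 0.025) was under the fold change threshold. Ier3 was at 6.16, 6.16 and 6.04 on HCD and 5.55, 5.91 and 5.95 on Control, a log2 difference of 0.31 (adjusted p = 0.24).

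In the brain, none of the 10 genes was called in any of 6 diet comparisons. Of the 60 tests, 4 had an unadjusted p below 0.05 in limma, and the smallest adjusted p was 0.53. For HCD+Gl-2 against HCD 0.0226% of all genes were called, and for HCD against Control 0.0317%. The share was 0.00906% for HCD+Gl-1 against HCD, 0% for HCD+Sim against HCD, and 0.00906% for HCD+Gl-2 against each of HCD+Gl-1 and HCD+Sim. Over all 12 diet comparisons without a called gene in the 3 tissues, 11 of 120 tests had an unadjusted p below 0.05. For HCD+Gl-2 against HCD the brain intervals were -0.35 to 0.48 for Dusp1, -0.19 to 0.67 for Btg2, -0.37 to 0.37 for Ier2, -0.10 to 0.37 for Ier3 and -0.16 to 0.49 for Zfp36, none of which reached the kidney values. Dusp5 was lowest on HCD+Gl-2, at 7.33, 7.39 and 7.35 against 7.95, 7.51 and 7.95 on HCD, but its log2 fold change of -0.45 did not pass (adjusted p = 0.53). All 3 arrays on HCD+Gl-2 lay above all 3 on HCD for Btg2 and Zfp36, as for 9.86% of all genes.

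The difference between tissues in the response to Gl-2 (HCD+Gl-2 minus HCD) was itself tested. Between kidney and brain, 5 of the 10 genes had a larger response in kidney (0.181% of all genes were called higher), by 1.89 for Btg2 (SE 0.30, adjusted p = 0.00019), 1.64 for Zfp36, 1.54 for Dusp1, 1.48 for Ier2 and 1.296 for Ier3. Between liver and kidney, 2 had a smaller response in liver (0.14% of all genes were called lower). These were Ier3, by -1.17 (SE 0.16, adjusted p = 2.6e-05), and Zfp36, by -1.12 (SE 0.23, adjusted p = 0.0068). Without pool B of liver HCD+Gl-2 the difference was -1.11 for Ier3 and -0.74 for Zfp36, both still called, and in the fit on the compared groups Zfp36 was not called (adjusted p = 0.26). For Dusp6 the difference was -0.0012 with an interval of -0.52 to 0.51, a mean over liver pools that lay apart, and without pool B it was 0.42 (interval 0.05 to 0.78, adjusted p = 0.43). For Btg2 the difference was -0.84 (interval -1.45 to -0.23) and for Dusp1 -1.003 (interval -1.59 to -0.42), and neither passed (adjusted p = 0.30 and 0.12). Without pool B these became -0.28 and -0.62, and neither passed. Over the 15 arrays of a tissue, Ier3 was dim in liver (5.55 to 6.46) and brain (6.24 to 6.67), and Ier2 in brain (5.88 to 6.24). These levels lay below all array medians (6.76 to 6.92), and whether they limit a fold change was not tested. Between liver and brain, Ier2 alone was called (0.131% of all genes were called higher), with a difference of 1.17 (SE 0.26, adjusted p = 0.021), and the call was lost in 5 of the 12 fits that left out 1 array (pool A or C of liver HCD+Gl-2, pool A or B of liver HCD, or pool C of brain HCD) and in the fit on the compared groups. Without pool B of liver HCD+Gl-2, 4 were called: Btg2 (1.61), Ier2 (1.58), Dusp6 (1.39) and Zfp36 (0.90). The share of all genes called in that refit was not computed.

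**Figure D3:**
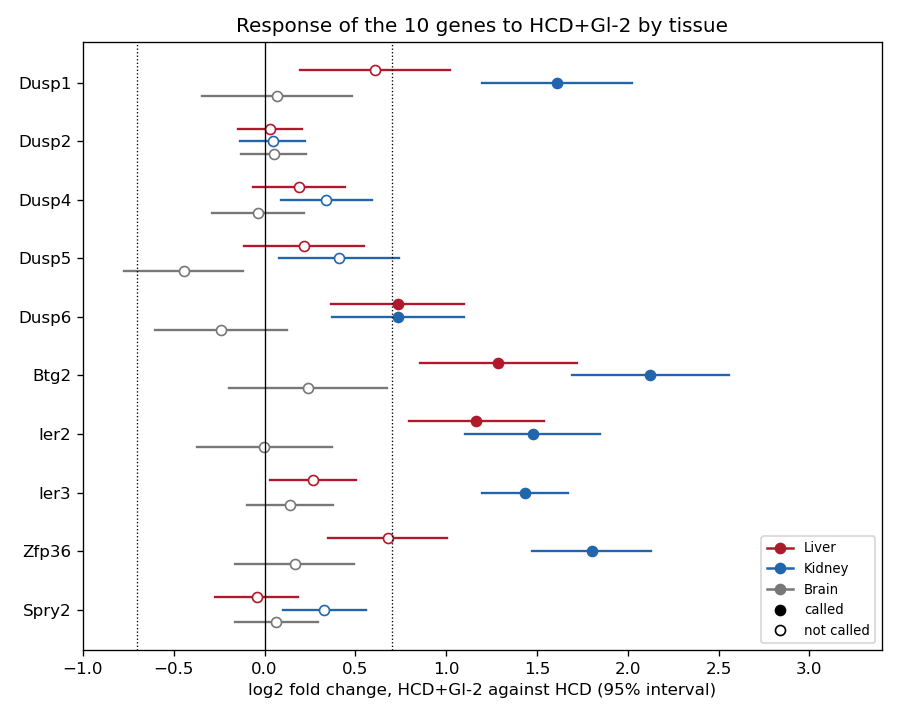
Log2 fold change of HCD+Gl-2 against HCD (x axis, dot) with its 95% interval (line) for the 10 genes in liver (red), kidney (blue) and brain (grey); filled dots were called and dotted lines mark the threshold of 0.7 in either direction. The called genes are 6 in kidney and 3 in liver, and no brain gene was called.

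Away from HCD+Gl-2 few pairs of the 6 genes called in kidney were strongly correlated there. Over the 12 kidney arrays of the other diets their 15 pairwise Pearson correlations ran from -0.22 to 0.86, and 3 of the 15 were above 0.5. The pair of Dusp1 and Zfp36 was the highest at 0.86. Over the 12 liver arrays of the other diets the range was 0.10 to 0.80, with 7 of 15 above 0.5 and Dusp1 and Zfp36 again the highest at 0.80. With HCD+Gl-2 included, which the choice of called genes makes high, the range was 0.91 to 0.99 in kidney and 0.64 to 0.93 in liver (0.65 to 0.94 without pool B). In brain it was -0.36 to 0.62 over 15 arrays. These correlations are descriptions over arrays that share their normalization, and pool C of each group shares its RNA with pools A and B.

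The genes of most similar pattern were ranked by Pearson correlation over all 15 arrays of an organ, so genes high on HCD+Gl-2 come first by construction. Over the 15 kidney arrays Btg2 was closest to Nr4a1, an orphan nuclear receptor (r = 0.99, and 0.73 without HCD+Gl-2), then Nr4a2 and Fos, whose r without HCD+Gl-2 was 0.35 and 0.29. Zfp36 was closest to Gem, a small GTP-binding protein (r = 0.99, and 0.90 without HCD+Gl-2), Egr1 and Cyr61. Gem also led for Dusp1 (r = 0.98), before Cyr61 and Hbegf, a growth factor of the EGF family. Ier2 was closest to Fos (r = 0.99), then Atf3 and Nr4a1, Ier3 to Tob1, a relative of Btg2 (r = 0.98), then Slc5a3 and Egr2, and Dusp6 to Id1 (r = 0.97), then Sdc4 and Junb. Without HCD+Gl-2 the kidney values ran from 0.12, for Ier3 and Egr2, to the 0.90 of Zfp36 and Gem. In liver, Btg2 was closest to Egr1 (r = 0.98), then Jun, Dusp6 to Fos (r = 0.97), Nr4a1 and Trib1, and Ier2 to Bud13 (r = 0.95), Btbd19 and Nr4a1, with values of 0.61 to 0.87 without HCD+Gl-2.

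The transcription factors of the immediate early wave stood higher in the same 2 organs. Of 21 such genes, 11 were called higher in kidney and 8 in liver on HCD+Gl-2 against HCD, none was called lower, and none was called in brain. Their median log2 fold change was 0.76 in kidney and 0.39 in liver, against 0.01 over all genes in each, and -0.03 in brain against 0.02. In kidney Egr1, a zinc finger factor, rose by 3.97, Nr4a1 by 3.47, Fos by 2.69 and Jun by 2.11. In liver Egr1 had log2 levels of 10.72, 6.98 and 11.16 in pools A, B and C of HCD+Gl-2 and of 7.14, 7.07 and 7.25 in those of HCD, which is the arrangement of Dusp1 and Zfp36. The mean level of the 21 genes was 7.76, 7.15 and 8.08 in liver pools A, B and C, against 6.99 to 7.01 on HCD. Without pool B, 9 of the 21 were called in liver, and their median was 0.48.

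The MAP kinase cascade and the wider feedback families were mostly not called. None of 36 genes of the cascade, from Egfr and Ras to the kinases and serum response factor, was called in any tissue on HCD+Gl-2 against HCD, and the median log2 fold change of the cascade was -0.04 for liver, -0.00023 for kidney and -0.0096 for brain. Of 25 relatives of the feedback genes (other Dusp, Sprouty, Spred, Btg, Tob, Ier, Zfp36-like and Gadd45 genes), 1 was called. This was Gadd45g in kidney, a stress sensor, with 9.34, 8.90 and 9.37 on HCD+Gl-2 and 7.77, 7.64 and 8.06 on HCD (log2 fold change 1.38, adjusted p = 5.7e-05). The median of the 25 relatives came to 0.08 in liver, to 0.22 in kidney, where 22 of the 25 were higher, and to -0.0092 in brain.

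Among 15 mRNAs known to be bound by tristetraprolin, the product of Zfp36, 3 were called higher in kidney and 2 in liver, none was called lower, and none was called in brain. In kidney they were Plk3, a stress-regulated kinase (log2 fold change 2.31), Ptgs2, which encodes cyclooxygenase-2 (0.94), and the chemokine Cxcl1 (0.73). In liver they were Plk3 (1.03) and the cytokine Il1b (0.84). The median over the 15 was 0.13 in liver and 0.04 in kidney, and 11 and 9 of the 15 had a positive log2 fold change in these organs. Without liver pool B, Plk3 and Il1b were again the genes called, and the median was 0.05.

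Other gene groups that moved on the same arrays are given as values, and their part in the result was not tested. Of 12 heat shock genes, 4 were called higher in liver and 3 in kidney, led by Dnajb1 in liver (1.63) and Hspa1a in kidney (1.32), and none in brain. Their mean level in liver was 9.81, 9.06 and 10.03 in pools A, B and C of HCD+Gl-2, against 9.05 to 9.17 on HCD, so pool B was low here as well, and 4 were called in liver without it. Of 15 clock genes, Ciart was called higher (1.23 in liver, 0.84 in kidney) and Npas2 lower (-0.82 and -0.76), and in liver Ciart was high in all 3 pools, at 9.48, 9.15 and 9.44 against 7.62 to 8.53 on HCD. Against HCD+Gl-1, Ciart and Npas2 were not called in either organ, and Per1 was called higher in both. Without liver pool B, Per1 was also called against HCD in liver. The time of day at which each group was killed is not given in the sources used here.

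Most markers of other cell types were not called. None of 17 leukocyte, 6 endothelial, 10 pancreas acinar, 8 skeletal muscle or 5 adipocyte markers was called in any tissue on HCD+Gl-2 against HCD. In liver the mean level of the 17 leukocyte markers was 6.58, 6.64 and 6.59 in pools A, B and C of HCD+Gl-2 and 6.51 to 6.63 on HCD, and in kidney it was 6.11 to 6.14 against 6.11 to 6.13. The mean of the acinar list in liver was 5.83 to 6.11 on HCD+Gl-2 and 5.84 to 5.95 on HCD, that of the muscle list 6.33 to 6.48 against 6.41 to 6.64, and that of the adipocyte list 5.89 to 6.08 against 6.01 to 6.08. All 6 endothelial markers had a lower mean in liver on HCD+Gl-2, with a list mean of 7.72 to 7.87 against 7.94 to 8.03, whereas in kidney the list mean was 8.62 to 8.70 against 8.62 to 8.63. In the liver of HCD+Gl-1 mice the endothelial list mean was similarly low, at 7.71 to 7.86. Of 8 adrenal markers, 1 was called, the steroid hydroxylase Cyp21a1 in liver, at 7.78, 7.37 and 7.29 on HCD+Gl-2 against 6.41 to 6.46 on HCD, with a list mean of 5.78 to 5.85 against 5.65 to 5.73. In tissue RNA, fewer cells of a type and less RNA per cell cannot be told apart.

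Levels on the Control diet also differed between tissues. Between liver and kidney 4 of the 10 were called (16.8% of all genes), between liver and brain 6 (32.7%) and between kidney and brain 6 (30%). Zfp36 had the widest range, from 9.44, 9.51 and 9.54 in liver through 8.57, 8.63 and 8.55 in kidney to 6.66, 6.79 and 6.56 in brain. Each step of that order was called, with log2 differences of 0.91 between liver and kidney (SE 0.16, adjusted p = 8.4e-06) and 1.92 between kidney and brain. Ier3 was highest in kidney at 7.27, 7.35 and 7.24, then in brain at 6.60, 6.64 and 6.39, then in liver at 5.55, 5.91 and 5.95, and all 3 differences were called, those with brain losing the call without 1 of 6 arrays (kidney) or either of 2 of 6 (liver). Spry2, which patterns branching organs and restrains growth factor signals, was highest in brain at 7.85, 7.71 and 8.00 and lowest in liver at 6.25, 6.31 and 6.38. It was called in brain against each other tissue, while the liver to kidney difference of -0.54 was under the fold change threshold (adjusted p = 9.5e-05).

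The phosphatases had no common order of tissues. Dusp1 was highest in kidney at 10.76, 10.75 and 10.75, and its difference of -0.90 between liver and kidney was called (adjusted p = 0.00032), while brain (10.06 to 10.40) was not called against either. Dusp4 was highest in kidney (7.32 to 7.45) and was called there against both liver and brain, the latter call being lost without pool A of brain or pool C of kidney and with pools A and B only. Dusp5 was highest in brain at 8.24, 8.50 and 7.45, lower by 0.98 in kidney and by 0.87 in liver, and kidney and liver differed by 0.11 with an interval of -0.22 to 0.44. Dusp6 was higher than in brain by 0.78 in liver and 0.71 in kidney, and the 2 organs differed by 0.08 with an interval of -0.29 to 0.44. Without pool B of brain the calls of Dusp6 against liver and kidney and of Dusp5 against liver were lost, and without pool C of kidney that of Dusp6 between kidney and brain. Dusp2 was not called between any pair, with group means from 6.14 in brain to 6.68 in liver. Ier2 was called between liver and brain (0.71), close to the threshold, and the call was lost without any one of 3 of the 6 arrays and with pools A and B only. Btg2 was within 0.18 of itself in all 3 tissues, with means of 6.83 (liver), 7.00 (kidney) and 6.99 (brain), with none of the differences called. Its HCD+Gl-2 mean of 9.09 in kidney was thus above its level in every tissue on Control, as the plot of Control arrays by tissue and the plot by diet show together.

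**Figure D4:**
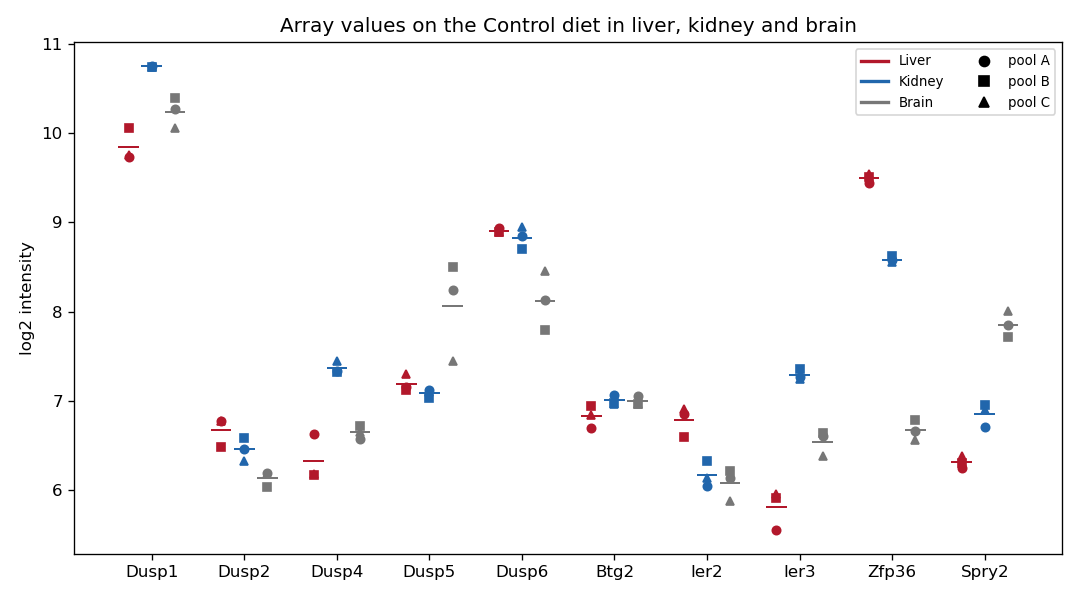
Log2 intensity (y axis) of the 10 genes (x axis) on the Control diet in liver (red), kidney (blue) and brain (grey). Each point is 1 array, its shape the pool, and each line the mean of 3 arrays; Zfp36 falls from liver to kidney to brain, Spry2 and Dusp5 are highest in brain, and Btg2 is at 6.83 to 7.00 in all 3 tissues. Heights of different genes cannot be compared, since each has its own probes.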

How the data were processed

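Total RNA of liver, kidney and brain was hybridized by the authors to Affymetrix Mouse Gene ST arrays, 45 in all, as pools A, B and C. The deposited values are log2 intensities that the authors made by robust multi-array averaging with quantile normalization, adjusted with ComBat for batches not given in the sources used here, and reduced to 1 probe set per gene. Such adjustment can move values between arrays. Groups came from the sample labels. One limma model (R 4.3.3, limma 3.58.1) with 15 group means was fitted to 22080 genes over the 45 arrays (30 residual degrees of freedom), with moderated variances and Benjamini-Hochberg adjustment within each comparison. Genes were called at an absolute log2 fold change above 0.7 and an adjusted p of at most 0.05. The script was tested on simulated data. Intervals are 95%. Pools A and B hold 4 mice each and pool C repeats them, so p-values measure the spread between arrays and treat 3 arrays as separate. Their number limits the precision. The members and lists were chosen with earlier results of these data known. All members are named, with at most 4 called genes of each other list and the 3 genes of highest Pearson correlation with each called member, of which 1 for Btg2 in liver is not reported here. Alternatives were fits on fewer arrays, pools A and B, a pool block, a filter on dim genes, renormalization, trended moderation, calls by adjusted p alone, fits that left out single arrays and, added after seeing the data, pool C alone for liver HCD+Sim, and lists and correlations without pool B of liver HCD+Gl-2. Of the gene identifiers, 13 were date-like and 2 occurred more than once. Promoters and motifs came from RefSeq (GRCm38.p6), read with Python 3.11.15, and figures were drawn with matplotlib 3.10.9.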

Additional observations from a re-analysis of the deposited data

Results flagged for a closer look

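The response to Gl-2 (HCD+Gl-2 minus HCD, log2 scale) differed between tissues by a test of the difference itself in 8 cases. Kidney exceeded brain for Btg2 by 1.89, for Zfp36 by 1.64, for Dusp1 by 1.54, for Ier2 by 1.48 and for Ier3 by 1.296. The kidney arrays of all 5 genes on HCD+Gl-2 lay above those of HCD. Liver fell short of kidney for Ier3 (-1.17) and Zfp36 (-1.12), and for Zfp36 the difference was -0.74 without pool B of liver HCD+Gl-2 and was not called in the fit on the compared groups (adjusted p = 0.26). Liver exceeded brain for Ier2 by 1.17, where pools A, B and C of liver HCD+Gl-2 were at 8.19, 7.19 and 8.65, and the call was lost in 5 of 12 fits that left out 1 array and in the fit on the compared groups.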

How the results depend on the processing

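Across alternatives no called value changed direction. The kidney counts for HCD+Gl-2 kept their size under all of them, with 5 to 6 called against HCD and 5 against HCD+Gl-1 and HCD+Sim when single arrays were left out, and the 12 comparisons with no called gene stayed at 0, except that by adjusted p alone 1 gene, Dusp4, was called in liver between HCD and Control. The liver counts depended on the fit. For HCD+Gl-2 against HCD, 3 became 0 in the fit on the liver arrays, 0 in the fit on the compared groups and 1 with pools A and B, and ran from 2 to 5 with single arrays left out. Against HCD+Gl-1, 4 became 0, 0 and 0 under the same alternatives (2 to 5 with arrays left out), and against HCD+Sim, 2 became 0, 0 and 0 (0 to 5), and 0 with pool C alone for liver HCD+Sim, an alternative chosen after seeing the data. For the response to Gl-2 between liver and brain, 1 became 2 with the filter on dim genes, 0 in the fit on the compared groups and 0 with pools A and B (0 to 4). Between liver and kidney, 2 became 1 in the fit on the compared groups, where Zfp36 was lost (2 to 4), and between kidney and brain 5 to 6 were called with arrays left out. On Control, 4 to 5, 3 to 6 and 4 to 6 were called for liver against kidney, liver against brain and kidney against brain, and by adjusted p alone the 4 of liver against kidney became 7. The share of all genes called was not computed for the alternatives, except for liver HCD+Gl-2 against HCD without pool B. The fits on fewer arrays estimate the spread from fewer arrays. The cause of the other changes was not tested. Pool letters hold different mice in each diet, so the letters do not pair the samples by animal. The deviations of same-letter arrays correlated at -0.38 to 0.42 between diets within a tissue. That range does not show whether arrays of a letter share anything else. With the pool letter as a replicate block, the counts for HCD+Gl-2 against HCD were 6 in kidney, 3 in liver and 0 in brain, and no count moved by more than 1.5 times. All 3 arrays of a group come from 2 separate pools, and the tissues may come from the same mice, which the model does not use.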
